A study of Mus musculus with 24 samples.

Results

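The conducting airways of the lung are lined by club, ciliated, mucous and basal cells, and 10 genes that mark these cells were followed here through 12 mouse lungs. They were Scgb1a1, Scgb3a1, Scgb3a2, Cyp2f2, Bpifa1, Muc5b, Ltf, Foxj1, Krt5 and Reg3g, and their rows were taken by gene symbol from the 36109 genes of the lung count table. The lungs came from C57/B6 mice in 4 groups of 3 animals. By the paper's methods, the WT mice were littermates of GSDMD-KO mice. WT mice were kept in room air of 21% oxygen (WT-RA) or in hyperoxia of 85% oxygen (WT-O2) from postnatal day 1 to day 14. GSDMD-KO mice were kept in the same way (KO-RA and KO-O2). All lungs were collected on day 15, each library was made from the whole lung of one mouse, and the GSDMD-KO is a global knockout that carries a CRISPR deletion of 38 bp in exon 5 of Gsdmd, which encodes the pore-forming protein gasdermin D. Since mRNA was measured in whole lung, fewer airway cells and less RNA per cell cannot be told apart in any of the results.

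Club cells are dome-shaped secretory cells that release secretoglobins and carry cytochrome P450 enzymes. They can renew themselves and give rise to ciliated cells, whose motile cilia move mucus out of the lung. Mucous and gland cells make the gel-forming mucins, antimicrobial proteins coat the surface, and basal cells are the stem cells of the trachea and main bronchi. In the mouse, basal cells are found in the trachea and largest bronchi. Neither basal cells nor submucosal glands are found in the small airways within the lung.

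The promoters of Scgb3a1 and Cyp2f2 are shown because both genes fell with hyperoxia in GSDMD-KO lungs. The letters are from RefSeq, build GRCm38.p6, run 5′ to 3′ on the plus strand on which both genes lie, and end before the annotated start of the gene. Capitals mark matches to CAAGTG or its reverse complement, the core of the binding motif of the lung factor Nkx2-1, and to the reverse complement of TGTTTGC, a forkhead motif.
Scgb3a1, chr11:49663345-49663594: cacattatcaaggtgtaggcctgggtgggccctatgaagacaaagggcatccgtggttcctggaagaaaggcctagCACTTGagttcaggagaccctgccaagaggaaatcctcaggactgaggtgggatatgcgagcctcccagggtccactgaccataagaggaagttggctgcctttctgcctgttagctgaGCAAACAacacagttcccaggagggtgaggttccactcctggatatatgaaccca
Cyp2f2, chr7:27119705-27119908: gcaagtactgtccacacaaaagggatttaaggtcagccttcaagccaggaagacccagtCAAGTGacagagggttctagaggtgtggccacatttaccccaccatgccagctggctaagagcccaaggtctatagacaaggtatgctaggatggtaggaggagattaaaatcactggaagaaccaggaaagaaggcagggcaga

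Promoters of 6 of the 10 genes were matched in the RefSeq table (Scgb3a1, Cyp2f2, Bpifa1, Ltf, Krt5 and Reg3g). On either strand, CAAGTG was found in 2 of the 6 and in 11.6% of 32851 promoters. TGTTTGC was found in 1 of the 6 and in 4.30% of all promoters, and TGTTTAC, another forkhead motif, in 0 of the 6 and in 3.17%. TGANTCA, the motif of AP-1, was found in 1 of the 6 (Bpifa1) and in 6.75%. A match describes the letters in these windows and is not a measured binding site.

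The libraries held 28763450 to 29604069 estimated counts. Gsdmd itself stood at 40.6 to 42.3 CPM (counts scaled to the library size) in WT-RA, 32.1 to 36.4 in WT-O2, 22.6 to 24.8 in KO-RA and 11.7 to 16.3 in KO-O2 lungs, so every GSDMD-KO lung was below every WT lung. Y-linked RNA, a sum of 4 genes above 20 CPM, was present in no WT-RA lung, in 1 WT-O2 lung, in 2 lungs of KO-RA and in all 3 of KO-O2. The KO-O2 group was also uneven in erythroid RNA, a sum of 11 genes, with 26304 CPM in the lung of mouse GSD061, 29940 in GSD097 and 5976 in GSD493. Liver RNA, a sum of 11 genes without Trf, was 184 CPM in GSD061 and 1.83 to 6.62 CPM in the other 11 lungs. In the other groups the erythroid sum was 15762 to 18164 CPM in WT-RA, 2924 to 4156 in WT-O2 and 12690 to 26870 in KO-RA. The part of Y-linked, erythroid and liver RNA in the airway genes was measured only by alternative fits. These had the presence of Y-linked RNA (yes or no, above 20 CPM) as a term, or left GSD061 and GSD097 out, alone and together. Y-linked presence varied only within the WT-O2 and KO-RA groups, so the size of its term rests on those groups. In what follows CPM is normalised by the trimmed mean of M values, a fold change is on the log2 scale with its standard error (SE), and the adjusted p is that of edgeR's quasi-likelihood test over the 16819 genes that passed the low-count filter. A gene rose or fell when its adjusted p was under 0.1, and a gene is said to be called when its fold change was also at least 2.

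The 10 genes spanned a wide range of levels. As CPM per kilobase of exon, in WT-RA lungs, Scgb1a1 stood at 23278, Cyp2f2 at 650, Scgb3a2 at 323 and Scgb3a1 at 180. Foxj1 followed at 31.5, Reg3g at 24.7, Muc5b at 9.65, Ltf at 2.07, Bpifa1 at 1.57 and Krt5 at 0.031. The spread between mice of one group differed as much. The highest lung was 1.23 to 1.33 times the lowest lung of its group for Foxj1 and 1.15 to 1.39 times for Scgb3a2, but 2.32 to 5.27 times for Reg3g and 4.09 to 6.90 times for Bpifa1, so the error of Reg3g and Bpifa1 was wide with 3 mice per group.

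**Figure D1:**
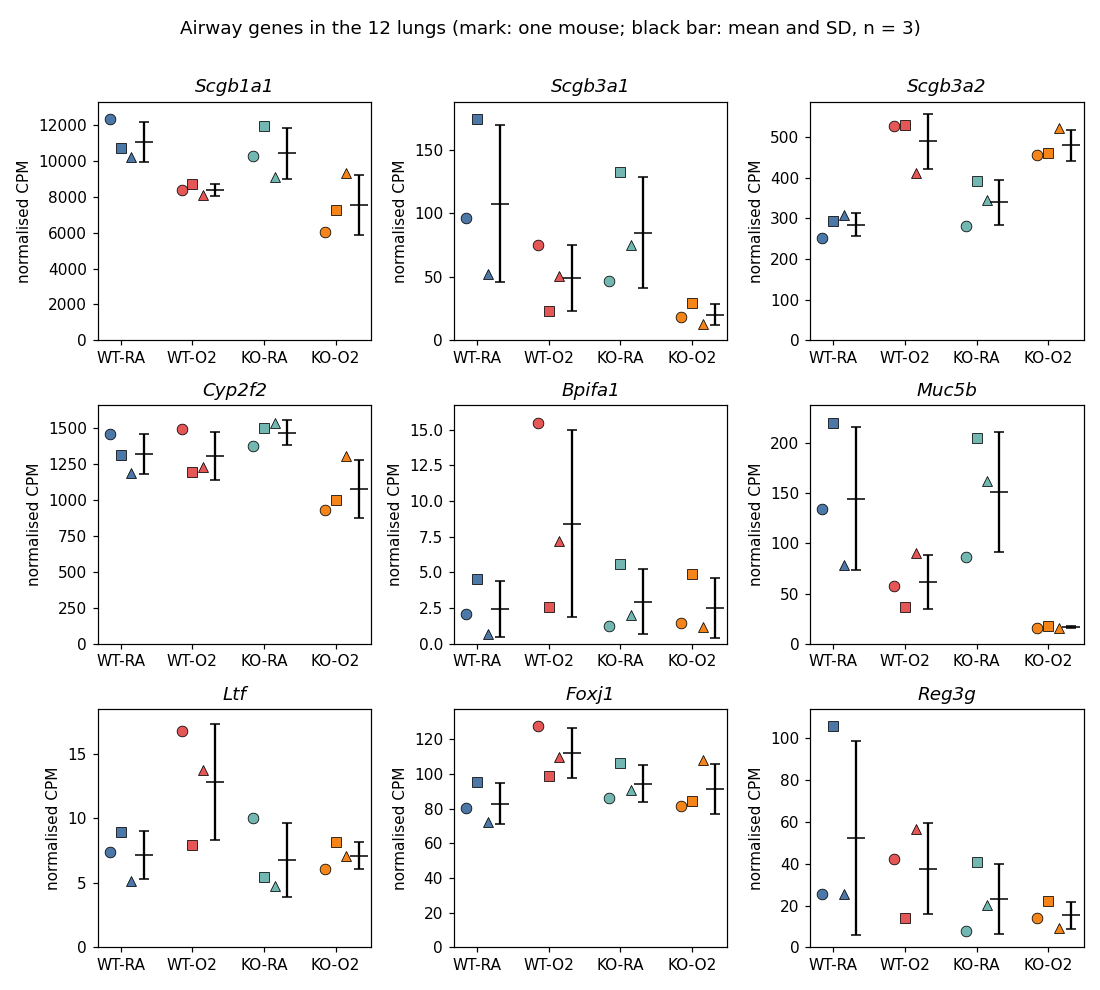
Normalised CPM of 9 airway genes in each of the 12 lungs on linear axes that start at 0. Circles, squares and triangles are mice 1, 2 and 3 of a group, and the black bar gives the mean and SD (n = 3). The 3 KO-O2 lungs lie between 15.9 and 18.2 CPM for Muc5b, under all other lungs.

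With hyperoxia, 5 of the 9 tested genes passed the test in WT mice and 5 in GSDMD-KO mice, and the sets were not the same. In WT lungs Scgb3a2, Foxj1 and Ltf rose, and Scgb1a1 and Muc5b fell. In GSDMD-KO lungs Scgb3a2 rose, and Scgb1a1, Scgb3a1, Cyp2f2 and Muc5b fell. Of all genes tested, 24.5% rose and 24.7% fell in WT mice, and 23.3% rose and 23.4% fell in GSDMD-KO mice, so counts of this size among 9 genes are near those of the whole lung. Downward calls of at least 2-fold were 1 of 9 in WT (Muc5b), beside 6.57% of all genes, and 2 of 9 in GSDMD-KO mice (Muc5b and Scgb3a1), beside 6.03%. No gene of the 9 was called upward in either genotype. Their median log2 fold change was -0.014 in WT mice, beside -0.0069 over all genes, and -0.45 in GSDMD-KO mice, beside -0.013. The hyperoxic and room air lungs did not overlap for 3 of the 9 in WT mice and for 4 of the 9 in GSDMD-KO mice, where 49.8% and 52.4% of all genes did not overlap.

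**Figure D2:**
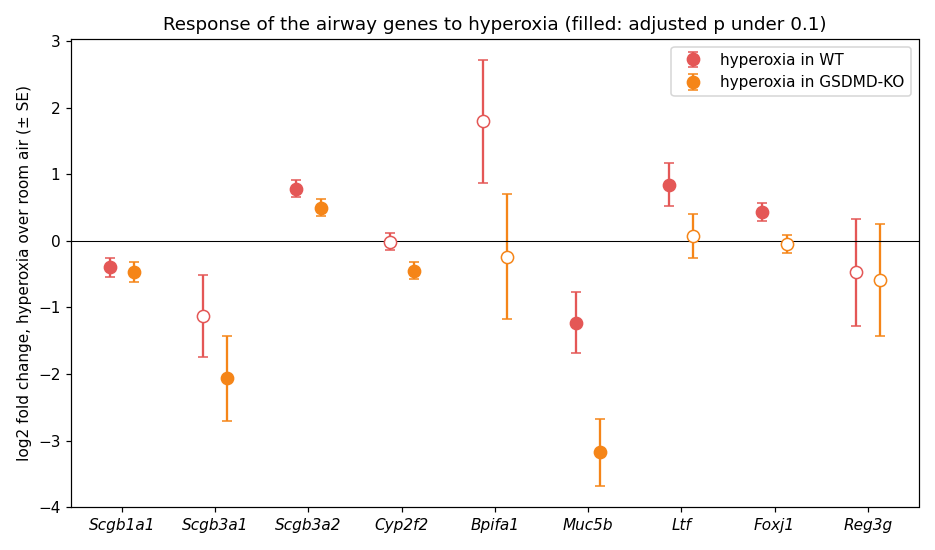
Log2 fold change of hyperoxia over room air (y axis, bars are SE) for 9 airway genes in WT mice (red) and GSDMD-KO mice (orange), 3 lungs in each group. Filled marks have an adjusted p under 0.1. Muc5b stands at -1.23 in WT and -3.18 in GSDMD-KO lungs.

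Scgb1a1 (ENSMUSG00000024653, chr19:9083636-9087958, GRCm38) encodes the club cell secretory protein and alone took 0.590% to 1.23% of all counts of a lung. Its level was 12332, 10703 and 10206 CPM in the WT-RA lungs and 8365, 8734 and 8087 CPM in WT-O2. All WT-O2 lungs were under all WT-RA lungs. Scgb1a1 fell in WT mice by 0.40 on the log2 scale (SE 0.15, adjusted p = 0.0395). In GSDMD-KO mice it was 10255, 11956 and 9116 CPM in room air and 6049, 7270 and 9328 CPM in hyperoxia. Here the groups overlapped, since GSD493, the KO-O2 lung with little erythroid RNA, was above the lowest KO-RA lung. The fall was 0.47 (SE 0.15, adjusted p = 0.0200). Single lungs decide both results: the adjusted p was 0.144 without the first WT-RA lung and 0.113 without the third WT-O2 lung for Scgb1a1 in WT mice. In GSDMD-KO mice it was 0.102 without KO-RA lung 2 (GSD496), 0.104 without GSD061, and 0.585 with GSD061 and GSD097 left out together, when the log2 fold change was -0.16.

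Scgb3a1, a secretoglobin of larger airways, varied more between mice. It stood at 96.3, 174 and 52.1 CPM in WT-RA lungs and at 74.8, 22.8 and 50.5 CPM in WT-O2 lungs. The groups overlapped and the log2 fold change of -1.12 (SE 0.61) did not pass the test (adjusted p = 0.180). In GSDMD-KO mice the level was 46.6, 133 and 75.1 CPM in room air and 18.7, 29.5 and 12.6 CPM in hyperoxia. Every KO-O2 lung was under every KO-RA lung. Scgb3a1 fell by 2.07 on the log2 scale (SE 0.64, adjusted p = 0.0332). Without KO-RA lung 2 the call was lost, with a log2 fold change of -1.59 for Scgb3a1 (adjusted p = 0.105), and it was also lost with GSD061 and GSD097 left out (adjusted p = 0.160, log2 fold change -2.74).

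Scgb3a2, the secretoglobin that appears early in the developing airway, moved opposite to Scgb1a1. It was 252, 294 and 308 CPM in WT-RA and 526, 529 and 412 CPM in WT-O2 lungs. No WT lung in room air reached the lowest WT lung in hyperoxia. The rise was 0.78 on the log2 scale (SE 0.13, adjusted p = 0.000236). In GSDMD-KO lungs it was 282, 391 and 346 CPM in room air and 456, 460 and 522 CPM in hyperoxia, again without overlap. Scgb3a2 rose in GSDMD-KO mice by 0.50 (SE 0.13, adjusted p = 0.00673). The rise depended on the scaling. With libraries scaled to 18 pan-epithelial genes, the log2 fold change of Scgb3a2 was 0.25 in WT (adjusted p = 0.108) and -0.017 in GSDMD-KO mice (adjusted p = 0.914), and it passed in neither. Scaling in that way moved the median of all genes by -0.53 in WT and -0.51 in GSDMD-KO mice, since 17 of the 18 pan-epithelial genes rose in WT and 14 of 18 in GSDMD-KO mice. With it, 4 of the 9 tested airway genes fell in WT and 5 in GSDMD-KO mice, and none rose in either genotype. Over all genes this scaling raised the calls from 1952 to 3415 in WT and from 1783 to 3233 in GSDMD-KO mice. The shares of all genes that rose or fell with it were not taken. Counts of genes under this scaling, here and below, therefore cannot be read as many or few.

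Cyp2f2 encodes a cytochrome P450 of club cells that activates naphthalene. In WT lungs it was 1459, 1307 and 1183 CPM in room air and 1492, 1192 and 1226 CPM in hyperoxia, groups that lay on top of one another, with a log2 fold change of -0.014 (SE 0.13, adjusted p = 0.944). When scaled to pan-epithelial genes, Cyp2f2 in WT mice was at -0.54 (adjusted p = 0.00169). In GSDMD-KO lungs it was 1369, 1494 and 1533 CPM in room air and 926, 996 and 1299 CPM in hyperoxia. These groups did not overlap, and Cyp2f2 fell by 0.45 (SE 0.13, adjusted p = 0.0136). The 2 lowest values belonged to GSD061 and GSD097, and without these mice the log2 fold change of Cyp2f2 was -0.17 (adjusted p = 0.527).

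Other club cell genes did not move in 1 direction. For this list and the later ones, the shares over all genes tested in the main fit were 24.5% up and 24.7% down in WT mice. In GSDMD-KO mice these shares were 23.3% and 23.4%. Of 27 tested genes of a list of 28, 10 rose and 5 fell in WT mice (median log2 fold change 0.15), and 9 rose and 10 fell in GSDMD-KO mice (median -0.38). With GSD061 and GSD097 left out, 9 rose and 4 fell in GSDMD-KO mice. When scaled to pan-epithelial genes, 3 rose and 12 fell in WT mice, and 1 rose and 17 fell in GSDMD-KO mice. The shares of the main fit do not apply to these scaled counts. Scnn1b, a subunit of the epithelial sodium channel, rose by 1.33 (SE 0.086, adjusted p = 4.15e-08) in WT and by 1.10 (SE 0.086, adjusted p = 3.03e-07) in GSDMD-KO mice on the log2 scale. Dcxr, which encodes a carbonyl reductase, rose by 0.87 and 0.71, and Ldhb, a subunit of lactate dehydrogenase, by 0.75 and 0.70. Chad, which encodes the matrix protein chondroadherin, fell in both genotypes. It was 42.7 to 73.1 CPM in WT-RA and 21.8 to 31.6 CPM in WT-O2 lungs, and 47.0 to 71.5 CPM in KO-RA and 13.9 to 17.2 CPM in KO-O2 lungs. Neither pair of groups overlapped. The log2 fold change of Chad was -1.02 (SE 0.21, adjusted p = 0.00276) in WT and -1.98 (SE 0.22, adjusted p = 3.64e-05) in GSDMD-KO mice. By mean level, further genes of this list went both ways. Fmo2 averaged 1268 CPM (WT-RA), 473 (WT-O2), 1157 (KO-RA) and 349 (KO-O2). In the same order, Cyp2b10 averaged 35.1, 18.0, 34.2 and 15.2 CPM, and Cyp4b1 188, 112, 156 and 114 CPM. Selenbp1 averaged 449, 339, 448 and 280 CPM. Cyp2s1 went up, with 94.1, 146, 101 and 133 CPM. These further genes were chosen after their values were seen.

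Foxj1 (ENSMUSG00000034227, chr11:116330704-116335399, GRCm38) encodes the transcription factor that switches on the motile cilia program. Its level was 80.5, 95.5 and 72.1 CPM in WT-RA and 127, 98.9 and 110 CPM in WT-O2 lungs, so each hyperoxic WT lung was above each WT lung in room air. Foxj1 rose in WT mice by 0.44 on the log2 scale (SE 0.13, adjusted p = 0.0182), but stood at -0.087 (adjusted p = 0.549) when scaled to pan-epithelial genes. In GSDMD-KO lungs it was 86.2, 106 and 90.8 CPM in room air and 81.3, 84.4 and 108 CPM in hyperoxia. These groups overlapped, and the log2 fold change was -0.049 (SE 0.13, adjusted p = 0.799), but Foxj1 was at -0.57 (adjusted p = 0.000741) when scaled to pan-epithelial genes.

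Of 46 ciliated genes other than Foxj1, 22 rose and 1 fell in WT mice (median log2 fold change 0.38), while 5 rose and 4 fell in GSDMD-KO mice (median -0.025). When scaled to pan-epithelial genes, 1 rose and 15 fell in WT and 0 rose and 33 fell in GSDMD-KO mice. No share over all genes was taken under that scaling, which moved all genes down. None of the 46 reached a fold change of 2 with an adjusted p under 0.1. The WT count rested in part on single lungs, as 10 rose without the first WT-O2 lung (GSD403) and 13 without the third WT-RA lung (GSD400). Cdhr4, a cadherin-related gene of ciliated cells, had log2 fold changes of 0.90 (SE 0.14, adjusted p = 0.000187) in WT and 0.41 (SE 0.14, adjusted p = 0.0338) in GSDMD-KO mice. Tubb4b, the tubulin of cilia, had 0.43 and 0.28, and Dnah11, an outer arm dynein, 0.82 and 0.84, all with an adjusted p under 0.1. Tppp3, a tubulin-binding protein, went the other way, falling by 0.79 in WT (adjusted p = 2.40e-05) and by 0.67 in GSDMD-KO mice (adjusted p = 0.000116). The difference of the hyperoxia effects between genotypes was below 0 for 42 of the 46 genes, with a median of -0.35 beside 0.0025 over all genes, but none of them passed the test of that difference and 4 had an unadjusted p under 0.05, as did 6.72% of all genes.

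**Figure D3:**
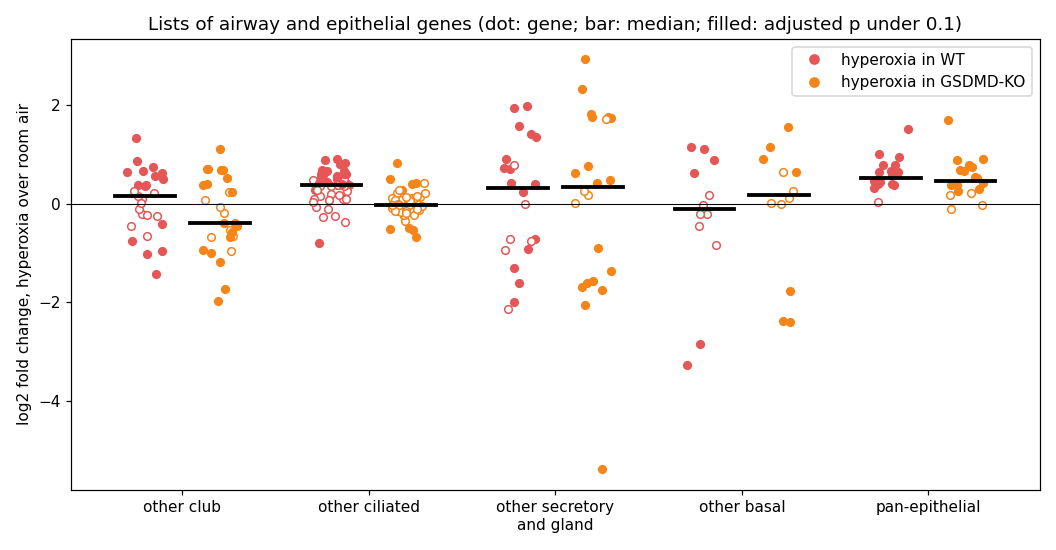
Log2 fold change of hyperoxia over room air (y axis) for each tested gene of 5 lists in WT mice (red) and GSDMD-KO mice (orange). A dot is a gene, filled with an adjusted p under 0.1, and the bar is the list's median. The bar of other ciliated genes is at 0.38 in WT and -0.025 in GSDMD-KO lungs, and scaling to the pan-epithelial genes on the right moves all genes down by 0.53 and 0.51.

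Muc5b (ENSMUSG00000066108, chr7:141839070-141873084, GRCm38), the gel-forming mucin that mouse airways make at rest, fell in both genotypes. It stood at 134, 220 and 78.9 CPM in WT-RA and at 57.5, 36.7 and 90.7 CPM in WT-O2 lungs. The third WT-O2 lung was above the third WT-RA lung. Muc5b fell in WT mice by 1.23 on the log2 scale (SE 0.46, adjusted p = 0.0632). That call was lost in 7 of 19 alternatives. Those 19 include fits that left out 1 GSDMD-KO lung, which is not part of this comparison. When 1 WT lung was left out, the call was kept only without lung 3 of either group. The adjusted p was 0.110 without WT-RA lung 1, 0.214 without WT-RA lung 2 (GSD399), 0.150 without WT-O2 lung 1 and 0.165 without WT-O2 lung 2. It was also 0.105 without the low-count filter, 0.121 with only the compared groups in the fit, and 0.119 with GSD061 and GSD097 left out.

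In GSDMD-KO mice Muc5b was 86.9, 205 and 162 CPM in room air and 16.1, 18.2 and 15.9 CPM in hyperoxia. The KO-O2 lungs were the 3 lowest of all 12 and lay close together. Muc5b fell by 3.18 on the log2 scale (SE 0.50, adjusted p = 0.00116), and the adjusted p was at most 0.0597 over 19 alternatives, which covered each left-out lung, and the lungs GSD061 and GSD097 together.

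The other secretory and gland genes split. Of 22 tested genes out of 26 in the table and 28 listed, 11 rose and 5 fell in WT mice, and 10 rose and 8 fell in GSDMD-KO mice, with medians of 0.32 and 0.34. With at least 2-fold change, 5 rose and 3 fell in WT, and 6 rose and 7 fell in GSDMD-KO mice. Of all genes, 5.04% were called upward and 6.57% downward in WT mice, and 4.57% and 6.03% in GSDMD-KO mice. Scaled to pan-epithelial genes, 6 rose and 9 fell in each genotype, without a share over all genes under that scaling. The downward count in GSDMD-KO mice was 3 to 5 in place of 8 without any of the lungs KO-RA 2, KO-RA 3 or KO-O2 1 to 3, 2 with GSD061 and GSD097 left out, and 5 without the low-count filter. In WT mice it was 9 in place of 5 with Y-linked presence as a term.

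Lcn2, the iron-scavenging protein lipocalin-2, had means of 152 ± 15.1 CPM in WT-RA, 580 ± 61.0 CPM in WT-O2, 105 ± 13.5 CPM in KO-RA and 524 ± 117 CPM in KO-O2 lungs (SD, n = 3). Its log2 fold changes were 1.93 (adjusted p = 4.76e-07) and 2.32 (adjusted p = 1.48e-07). Ano1, a calcium-activated chloride channel, rose by 1.59 and 1.73, Slpi, a protease inhibitor, by 1.36 and 1.76, and the membrane mucin Muc1 by 0.73 and 0.63. Lcn2 also belongs to a neutrophil list of 16 genes, whose summed level was 228 to 238 CPM in WT-RA, 595 to 694 in WT-O2, 164 to 262 in KO-RA and 484 to 710 in KO-O2 lungs. Without Lcn2 the other 15 genes summed to 68.8 to 90.4 CPM in WT-RA against 72.4 to 85.1 CPM in WT-O2 lungs, and to 74.4 to 152 CPM in KO-RA against 71.9 to 81.8 CPM in KO-O2 lungs, with overlapping ranges. Of the 16 genes with Lcn2, 14 were tested, of which 2 rose and 0 fell in WT, and 2 rose and 2 fell in GSDMD-KO mice. Camp, a defining granule gene of neutrophils, had a mean of 0.67 to 1.89 CPM in the 4 groups and Ngp one of 5.31 to 14.8 CPM.

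Clca1, a protein secreted with mucus, was 329, 1054 and 369 CPM in WT-RA and 29.2, 42.9 and 327 CPM in WT-O2 lungs. In GSDMD-KO mice it was 29.1, 225 and 329 CPM in room air and 1.40, 8.25 and 4.42 CPM in hyperoxia. Neither pair overlapped, but Clca1 differed by over 10 times among the lungs of WT-O2 and of KO-RA. The log2 fold change was -2.14 (SE 1.17, adjusted p = 0.182) in WT and -5.38 (SE 1.42, adjusted p = 0.0172) in GSDMD-KO mice. Tff2, a trefoil peptide of mucous cells, was 15.5 to 48.6 CPM in WT-RA and 4.47 to 11.5 in WT-O2, and 7.79 to 25.5 in KO-RA and 4.86 to 5.31 in KO-O2 lungs. Tff2 fell by 1.60 (adjusted p = 0.0535) in WT and by 1.74 (adjusted p = 0.0486) in GSDMD-KO mice. Muc5ac, the mucin of goblet cells, was 16.1 to 47.3 CPM in WT-RA and 10.2 to 26.9 in WT-O2, which overlapped (log2 fold change -0.75, adjusted p = 0.293). It was 8.64 to 21.6 CPM in KO-RA and 4.58 to 6.12 CPM in KO-O2 lungs and fell by 1.56 (adjusted p = 0.0590). Bpifb1, a large relative of Bpifa1, had log2 fold changes of -0.72 (adjusted p = 0.404) and -1.68 (adjusted p = 0.0801). Fcgbp, Bpifb5 and Agr2 were further called genes of the downward group in GSDMD-KO mice, with log2 fold changes of -2.05, -1.37 and -1.61, and were chosen after their values were seen.

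**Figure D4:**
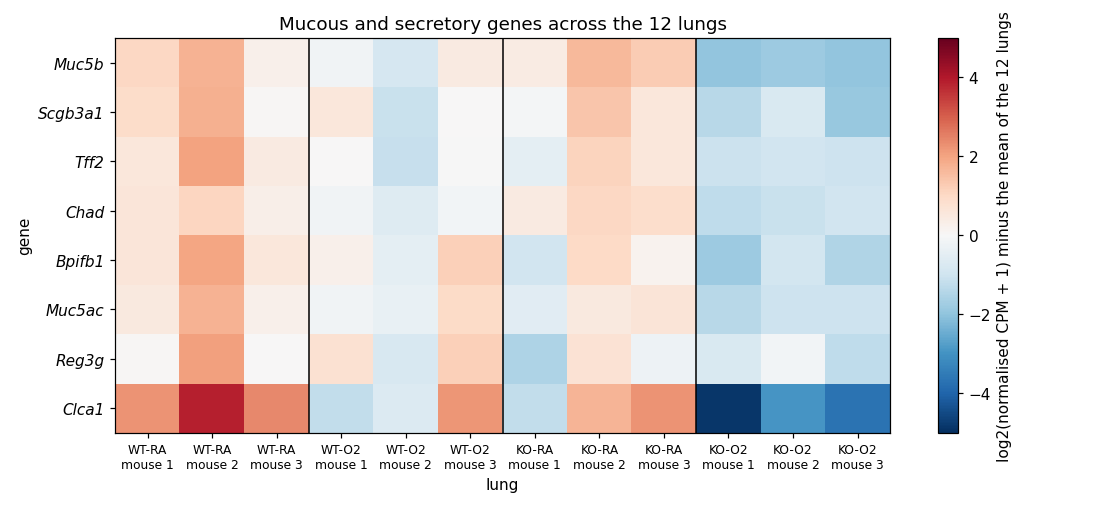
Level of 8 mucous and secretory genes (rows) in the 12 lungs (columns), as log2(normalised CPM + 1) minus the mean of the 12 lungs; red is higher and blue lower. The 3 KO-O2 lungs are below the mean for all 8 genes, and mouse 2 of WT-RA (GSD399), at 220 CPM of Muc5b and 1054 CPM of Clca1, is the reddest column. The 8 rows were selected, and Tff2, Chad, Bpifb1 and Muc5ac are among the genes most like Scgb3a1, Muc5b or Reg3g. Secretory genes that rose with hyperoxia, among them Lcn2, Ano1, Slpi and Muc1, are not shown.

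Bpifa1, an antimicrobial protein of the upper airway surface, was low. It was 2.09, 4.51 and 0.65 CPM in WT-RA and 15.5, 2.55 and 7.19 CPM in WT-O2 lungs. The groups overlapped, and the log2 fold change of 1.79 (SE 0.92) did not pass the test (adjusted p = 0.153). In GSDMD-KO lungs it was 1.26, 5.58 and 2.03 CPM in room air and 1.43, 4.92 and 1.20 CPM in hyperoxia, with a log2 fold change of -0.24 (adjusted p = 0.867). The SE of 0.92 on the log2 scale limits what could be detected for Bpifa1.

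Ltf encodes lactoferrin, an iron-binding protein of serous cells and of neutrophil granules. It was 7.40, 8.92 and 5.16 CPM in WT-RA and 16.8, 7.95 and 13.7 CPM in WT-O2 lungs. The second WT-O2 lung was within the range of WT-RA. Ltf rose in WT mice by 0.84 on the log2 scale (SE 0.32, adjusted p = 0.0542), a pass that was lost in 6 of 19 alternatives. Those 19 include fits that left out 1 GSDMD-KO lung, which is not part of this comparison. The pass was lost without WT-RA lung 1 (adjusted p = 0.113), WT-RA lung 3 (0.169), WT-O2 lung 1 (0.190) and WT-O2 lung 3 (0.122). In GSDMD-KO lungs it was 10.0, 5.45 and 4.75 CPM in room air and 6.05, 8.18 and 7.09 CPM in hyperoxia, groups that overlapped (log2 fold change 0.075, adjusted p = 0.876).

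Reg3g, a C-type lectin that kills Gram-positive bacteria, was set by single mice. It was 25.7, 106 and 25.3 CPM in WT-RA and 42.2, 13.8 and 56.7 CPM in WT-O2, and 7.72, 40.7 and 20.5 CPM in KO-RA and 14.2, 22.1 and 9.50 CPM in KO-O2 lungs. Both pairs overlapped. Its log2 fold change was -0.47 (SE 0.80, adjusted p = 0.676) in WT and -0.59 (SE 0.84, adjusted p = 0.619) in GSDMD-KO mice, and it was 0.56 in WT without GSD399 and 0.11 in GSDMD-KO without GSD496.

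The high values of several genes fell in the same mice. GSD399 had the highest level of its group for 7 of the 10 genes, as did GSD496 among KO-RA lungs, while GSD403 in WT-O2 and GSD097 in KO-O2 did so for 6. Among other secretory and gland genes the summed level was 2726 CPM in GSD399 and 1613 and 1650 CPM in the other WT-RA lungs. A list of 12 cartilage genes was 56.4 to 59.3 CPM in all 3 WT-RA lungs and lowest in GSD399. Cartilage genes were 84.9 to 108 CPM in WT-O2, 65.4 to 67.6 CPM in KO-RA and 102 to 119 CPM in KO-O2 lungs. These sums were mostly Matn4 and Hapln1. Col2a1, the defining cartilage collagen, was near 0, with mean CPM of 0.70 (WT-RA) and 0.24 (WT-O2) in wild types. In knockouts it was 1.25 (KO-RA) and 0.33 (KO-O2). Col2a1 was called lower in WT (log2 fold change -1.53, adjusted p = 0.0276) and in GSDMD-KO mice (-1.89, adjusted p = 0.00554). Acan was called lower in GSDMD-KO mice only (-1.575, adjusted p = 0.0327). Hapln1, Matn3 and Matn4 rose in both genotypes.

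Krt5, the keratin that defines basal cells, was at the limit of detection. It had 0 counts in 6 lungs, 1 count in 4 lungs, 6 counts in GSD399 and 8 counts in GSD403, and a count of 0 allows up to 3 counts. No test was made. The other defining basal genes were also low, with means per group of 0.46 to 0.75 CPM for Trp63, at most 0.25 CPM for Krt14 and 0.32 to 1.37 CPM for Krt15. Of 20 other basal genes 12 were tested, 4 rose and 2 fell in WT mice, and 4 rose and 3 fell in GSDMD-KO mice. Those that rose include Lamb3, a laminin chain (1.12 and 1.16), and Sfn, the stratifin gene (1.16 and 0.91), both also expressed by other epithelial cells. Col17a1, a hemidesmosome collagen, fell by 2.84 (adjusted p = 1.85e-05) in WT and by 2.40 (adjusted p = 8.68e-05) in GSDMD-KO mice, and its means were 7.02 and 5.45 CPM in room air against 0.98 and 1.03 CPM in hyperoxia.

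Genotype was compared within each exposure. In hyperoxia all 9 tested genes were lower in KO-O2 than in WT-O2 lungs, with a median log2 fold change of -0.85 beside -0.00058 over all genes, but none passed edgeR's test, and 0.0416% of all genes did. Unadjusted p was under 0.05 for 4 of the 9 and for 6.21% of all genes. Muc5b was the only one whose groups did not overlap, where 12.2% of all genes did not. Its lungs stood at 36.7 to 90.7 CPM in WT-O2 and 15.9 to 18.2 CPM in KO-O2, a log2 fold change of -1.88 in edgeR's test (SE 0.49, unadjusted p = 0.00421, adjusted p = 0.541). DESeq2 gave an adjusted p of 0.0148 for Muc5b, and over all 19 alternatives the adjusted p ran from 0.0148 to 1.00. In order of p, Ltf came next at -0.85 (SE 0.32, unadjusted p = 0.0217, adjusted p = 0.740), Foxj1 at -0.30 (SE 0.13, unadjusted p = 0.0451, adjusted p = 0.787) and Cyp2f2 at -0.28 (SE 0.13, unadjusted p = 0.0493, adjusted p = 0.800). Bpifa1 at -1.74, Reg3g at -1.30 and Scgb3a1 at -1.29 differed by more than Ltf, with wider errors and an unadjusted p of 0.0912, 0.158 and 0.0757. With GSD061 and GSD097 left out, the log2 fold change between KO-O2 and WT-O2 was -0.054 for Foxj1 and -0.0047 for Cyp2f2. In that fit it was -1.96 for Muc5b, -0.86 for Ltf, 0.15 for Scgb1a1 and 0.096 for Scgb3a2. Y-linked RNA was in 1 of 3 WT-O2 and 3 of 3 KO-O2 lungs. With Y-linked presence as a term in edgeR's test, the log2 fold change of Muc5b was -2.49 (adjusted p = 0.238).

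In room air the genotypes were closer. None of the 9 genes passed the test in KO-RA against WT-RA lungs, where 0.488% of all genes did, none had an unadjusted p under 0.05, against 10.5% of all genes, and none had groups apart, against 15.2%. The log2 fold changes ran from -1.18 for Reg3g (SE 0.82) to 0.29 for Bpifa1 (SE 0.95), with a median of 0.068 beside -0.00055 over all genes. Muc5b was at 0.068 (SE 0.45), a value that became -0.69 with Y-linked presence as a term.

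The test of whether hyperoxia acted differently in the genotypes passed for none of the 9 and for 0.00595% of all genes. The difference of log2 fold changes, GSDMD-KO minus WT, was below 0 for 9 of 9, with a median of -0.49. An unadjusted p under 0.05 was found for 3 of the 9, beside 6.72% of all genes. The difference was -1.95 for Muc5b (SE 0.66, unadjusted p = 0.0173, adjusted p = 0.631), -0.49 for Foxj1 (SE 0.19, unadjusted p = 0.0228, adjusted p = 0.679) and -0.43 for Cyp2f2 (SE 0.18, unadjusted p = 0.0328, adjusted p = 0.685). With GSD061 and GSD097 left out, the difference was -2.02 for Muc5b, -0.24 for Foxj1 and -0.16 for Cyp2f2. Since these differences share lungs with the genotype comparison in hyperoxia, the signs are not separate evidence. A gene that passed in one genotype and not in the other is therefore not shown to respond differently.

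By order of mean level, KO-O2 was lowest for Scgb1a1, Scgb3a1, Cyp2f2, Muc5b and Reg3g. Neighbouring groups in that order did not overlap between WT-O2 and KO-RA for Scgb1a1, between KO-RA and KO-O2 for Scgb3a2, and between KO-O2 and WT-O2 for Muc5b. The order was made from these same means and no share over all genes was taken. These places therefore cannot be read as many or few.

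Of 16 regulators of airway cell fate, 4 rose and 4 fell in WT, and 3 rose and 4 fell in GSDMD-KO mice. These counts are near the shares over all genes, 24.5% up and 24.7% down in WT, and 23.3% and 23.4% in GSDMD-KO mice. Hey1, a Notch target, fell by 1.83 (adjusted p = 2.79e-06) and by 1.99 (adjusted p = 1.65e-06). Notch3 fell by 0.55 and 0.46, and the ligands Dll1 by 0.95 and 1.23 and Jag2 by 0.35 and 0.72. Notch1, Notch2, Jag1 and Hes1 of the same list, chosen after their values were seen, passed in neither genotype, and lung vessels also express Notch genes. Neuroendocrine genes rose for 3 of 10 tested in each genotype and fell for none, led by Uchl1 and Calca at 1.03 and 1.23 in WT mice and 0.49 and 0.80 in GSDMD-KO mice. Among 5 tested tuft cell and ionocyte genes 1 fell in WT mice (Trpm5, by 1.13) and 0 passed in GSDMD-KO mice. Alveolar type 2 genes fell for 6 and rose for 2 of 14 in each genotype, with Sftpa1 falling by 0.84 and 0.81.

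The genes most like each member across the 12 lungs were found by the root mean square difference of log2 CPM, each centred on its own mean, among 14679 genes. Foxj1 was most like Efcab12 (0.070), Scgb1a1 like Ifi27 (0.077), Cyp2f2 like Fhdc1 (0.088) and Scgb3a2 like Scamp5 (0.12). The more variable genes had looser neighbours. For Muc5b they were Calml3 (0.49), Scgb3a1 (0.53) and Chad (0.55), for Scgb3a1 they were Tff2 (0.38), Chad (0.51) and Muc5b (0.53), and for Reg3g they were Bpifb1 (0.54), Tmc5 and Muc5ac. Ltf was most like Zxda (0.23) and Bpifa1 like Car3 (0.74). Calml3, a calmodulin-like gene, fell by 1.70 (adjusted p = 0.000564) in WT and by 2.53 (adjusted p = 3.98e-05) in GSDMD-KO mice. These likenesses include the spread between mice and the response to hyperoxia together and describe these libraries.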

How the data were processed

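RNA sequencing of 12 mouse lungs was used, 3 mice in each of 4 groups taken from the genotype and treatment on the labels. Reads were quantified by the authors against mouse transcripts (kallisto) and collapsed to genes (tximport). The values deposited by the authors are these estimated counts (expected counts) per gene, with no correction for library size. The labels name mm10 and the study's methods a later mouse build, and whether counting used strand is not given in the sources used here. The retina table was not used here.

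Counts were rounded, genes with low counts were removed with filterByExpr, and TMM-normalised counts of the 12 lungs were fitted in 1 model with edgeR 4.0.16 (robust quasi-likelihood, R 4.3.3) and Benjamini-Hochberg adjustment over 16819 genes. The study's thresholds were kept for calls: an adjusted p under 0.1, p under 0.05 and 2-fold or more. Gene lengths and coordinates came from GRCm38, in which 35816 of the identifiers had a symbol. The test was first checked on simulated data. Libraries held 28763450 to 29604069 counts, and a floor or interval covers counting error only. DESeq2 1.42.0, other scalings and filters, and leaving out each lung were tried as alternatives.

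The genes and lists were chosen with earlier results of these data known. Named beside the 10 genes were at most 3 genes of a list with the smallest p for hyperoxia in WT and in GSDMD-KO mice, at most 2 for KO-O2 against WT-O2 with p under 0.05, and the 3 genes most like each of the 10. Genes said to be chosen after their values were seen are outside this rule. Alternatives are described in the closing section, and that leaving out GSD061 and GSD097 together was chosen after seeing the data.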

Additional observations from a re-analysis of the deposited data

How the results depend on the processing

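No paired analysis was possible because the labels give a mouse number to each lung and no number shared between groups. Each lung is a separate mouse, with 3 a group. The p-values compare group means against a spread between mice that is estimated over all 4 groups and moderated across genes. The titles of the lungs name no litter or chamber, so whether mice of a group shared either is not known here. Of 846 alternative values of the single genes, 787 kept their direction and their side of the 2-fold call, 9 lost and 5 gained a call, and 45 reversed. Many of these values are from fits that left out a lung outside the groups compared. Such a lung bears on the result mainly through the shared spread. Most genes were also not called in the main fit. The 787 therefore do not measure how firm the called results are. By an adjusted p under 0.1 alone, 24 of the 846 lost and 5 gained a pass. The causes were not tested.

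Of the 10 airway genes, those called with hyperoxia in WT (1) were 0 without the low-count filter, with only the groups compared, and with GSD061 and GSD097 left out, 2 when scaled to pan-epithelial genes and 3 at a fold of 1.5, and ranged from 0 to 2 without single lungs. In GSDMD-KO (2) they were 1 without GSD061 and GSD097, and 1 to 2 without single lungs. DESeq2 called 1, Muc5b, in KO-O2 against WT-O2 (0). A fold of 1.5 called 10 and 11 other club genes in WT and GSDMD-KO (3 and 4), 12 and 2 other ciliated genes (0 and 0) and 13 other secretory genes in WT (8). Pan-epithelial scaling called 10 other club genes in GSDMD-KO, 1 and 4 other ciliated genes, and 2 other basal genes in WT (4). Without GSD061 and GSD097, 7 other secretory (13) and 3 other basal genes (5) were called in GSDMD-KO. Without single lungs, other ciliated calls in WT ranged from 0 to 2 and other secretory calls in GSDMD-KO from 8 to 14. Pan-epithelial scaling called 3415 genes in WT and 3233 in GSDMD-KO over all genes, against 1952 and 1783 in the main fit. Shares over all genes were not taken at a fold of 1.5, with DESeq2 or with lungs left out. The counts show how calls moved with the setting and cannot be read as many or few.

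Reversed log2 fold changes under pan-epithelial scaling were -0.087 for Foxj1 in WT, and -0.017 for Scgb3a2 and -0.44 for Ltf in GSDMD-KO. With GSD061 and GSD097 left out they were 0.20 for Foxj1 in GSDMD-KO, 0.15 for Scgb1a1 and 0.096 for Scgb3a2 in KO-O2 against WT-O2, and 0.24 for the interaction of Scgb1a1. With Y-linked presence as a term they were -0.10 for Bpifa1, -0.69 for Muc5b and 0.13 for Ltf in KO-RA against WT-RA, and 0.17 for the interaction of Reg3g. Without single lungs the ranges that cross 0 were: in WT -0.12 to 0.066 for Cyp2f2 and -0.89 to 0.56 for Reg3g; in GSDMD-KO -1.16 to 0.60 for Bpifa1, -0.13 to 0.48 for Ltf, -0.19 to 0.044 for Foxj1 and -1.01 to 0.11 for Reg3g. For KO-O2 against WT-O2 the range was -0.14 to 0.027 for Scgb3a2. For KO-RA against WT-RA the ranges were -0.20 to 0.0046 for Scgb1a1, -0.83 to 0.19 for Scgb3a1, -0.56 to 1.11 for Bpifa1, -0.23 to 0.51 for Muc5b and -0.49 to 0.11 for Ltf. For the interaction they were -0.26 to 0.065 for Scgb1a1 and -1.16 to 0.58 for Reg3g.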
